A study of Arabidopsis thaliana with 12 samples.

Results

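The genes described here are those that copy nuclear DNA and drive S phase in the third leaf of Arabidopsis thaliana. They comprise the MCM helicase, the origin recognition complex (ORC), CDC6 and CDT1, CDC45 and ETG1, the PCNA clamps and their RFC loader, replicative polymerases, ribonucleotide reductase, the chromatin assembly subunits FAS1 and FAS2, the E2F factors E2FA to E2FC and the A3-type cyclins. They were chosen by function, with earlier results of these data known. Of 40 listed loci, 35 had a probe set among the 21428 loci tested. ORC1A, ORC1B, CDT1B, MCM6 and RFC1 were not analysed here. Leaf 3 came from 9-day-old Col-0 seedlings that all carried 35S::gai-GR, in which the near-ubiquitous 35S promoter drives a dominant DELLA repressor (gai) fused to the hormone-binding part of the glucocorticoid receptor (GR). Dexamethasone (DEX) lets the fusion protein enter the nucleus, where gai restrains gibberellin responses and cannot be removed by gibberellin. The 4 groups, of 3 ATH1 microarrays each, were DEX for 1 h, mock (DMSO) for 1 h, DEX for 4 h and mock for 4 h, with DEX at 5 µM. The mock plants carry the transgene too, and plants without it were not analysed here. The dissected leaves of many plants were pooled, so that a level is an average over all cells of the leaf, and fewer replicating cells cannot be told apart from less RNA per cell. Levels are log2 values per probe set, so that a log2 fold change of -1 is a halving.

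Before S phase, each replication origin is licensed: ORC marks it, and CDC6 and CDT1 then load the MCM ring onto the DNA. CDC45 joins the ring to make the active helicase, polymerases copy the strands on a PCNA clamp that RFC loads, ribonucleotide reductase supplies the deoxynucleotides, and chromatin assembly factor 1 places histones on the new DNA. In plants, as in animals, many of these genes are targets of E2F transcription factors and are transcribed towards the start of S phase, and young leaves hold many cycling cells before they turn to expansion.

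One array stood apart. Mock 4 h replicate 2 had a median log2 level over all loci of 7.48, and the other 4 h arrays lay between 7.74 and 7.78. It correlated with the other mock 4 h arrays at 0.988 and 0.987, which correlated with each other at 0.995. For 30 of the 35 replication genes (85.7%) it was the lowest of the mock 4 h arrays, as it was for 59.7% of all loci. The counts of replication genes called at 4 h, and the genes whose DEX call it changed, are therefore given with and without it. Other 4 h values include it unless stated. The leaf markers LHCB3, LHCA1, RCA and FNR2 averaged log2 levels of 11.5 to 13.8 in every group. Of the 6 measured root genes, PLT2 and RHD6 lay below the lower quartile of the array in all 12 arrays, PLT1 in 7, EXPA7 and EXPA18 in 1 each and COBL9 in 0, and their summed linear signal was 360 to 392 in DEX 4 h arrays and 372 to 401 in mock 4 h arrays. No replication gene lay below the quartile in any array.

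After 4 h, 16 of the 35 genes were lower in DEX leaves than in mock leaves at an adjusted p under 0.05 (limma, Benjamini-Hochberg over all loci) and 0 were higher, where 2.55% of all loci fell and 5.35% rose. Over the 35 genes the median log2 fold change was -0.44, against 0.02 over all loci, and the fold changes ranged from -0.83 to 0.27. The counts varied along the steps. Licensing had 9 of 13 genes lower, with a median of -0.63, and the replication fork 3 of 11, with a median of -0.18. Ribonucleotide reductase had 2 of 3, chromatin assembly 1 of 2, and the E2F and cyclin group 1 of 6. Without mock 4 h replicate 2 the counts were 10 of 13 for licensing, 5 of 11 for the fork (median -0.29), 2 of 3 for ribonucleotide reductase, 2 of 2 for chromatin assembly and 4 of 6 for the E2F and cyclin group. Whether the steps differ was not tested, and the steps hold only the listed genes. Some fork genes outside them also fell with DEX at 4 h and are given below with the other replication genes. All 16 calls held without mock 4 h replicate 2, when 23 genes fell, against 4.73% of all loci, and with the arrays centred on their medians, when 21 genes fell, against 6.07%.

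**Figure D1:**
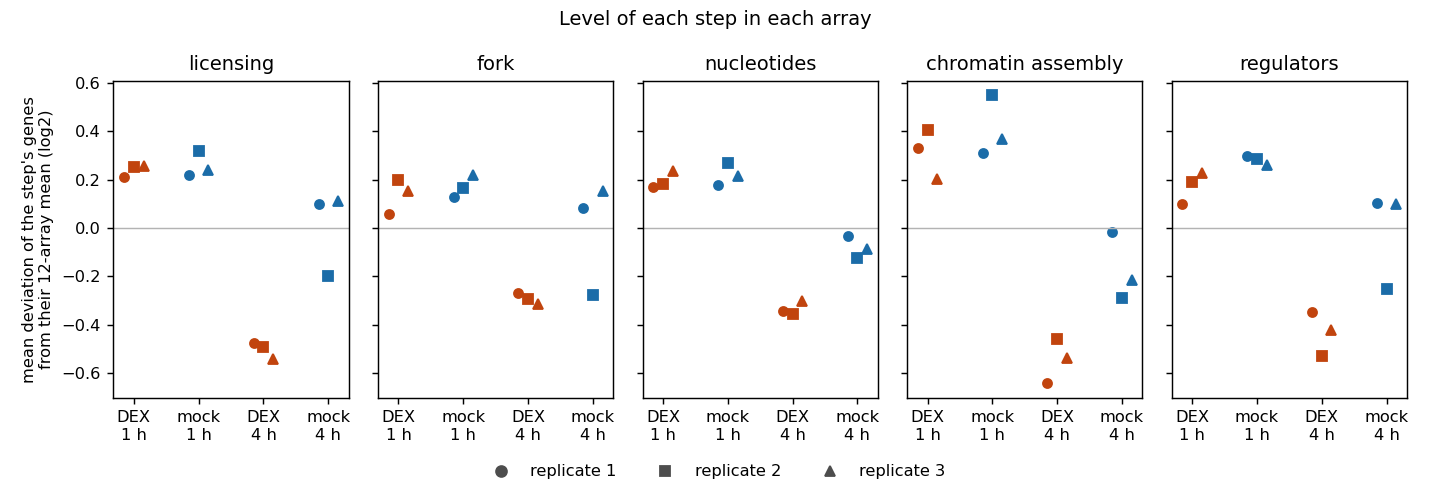
The mean deviation of each step's genes from their 12-array means (log2, y axis) is plotted for every array, with DEX arrays in orange and mock arrays in blue, and the marker shape gives the replicate. In every step but the fork the 3 DEX 4 h arrays lie lowest, and for licensing they sit between -0.54 and -0.48, below mock 4 h replicate 2 at -0.20. For the fork that array lies among them, with DEX 4 h at -0.31 to -0.27 and mock 4 h replicate 2 at -0.28.

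Among the licensing genes, CDT1A (probe set AT2G31270_at), which delivers the MCM ring to the origin, changed most. Its log2 level was 8.88, 8.78 and 8.74 in DEX 4 h leaves, against 9.70, 9.35 and 9.84 in mock 4 h leaves. The groups did not overlap, although mock 4 h replicate 2 was the lowest mock array. CDT1A fell by 0.83 on the log2 scale (SE 0.11), to a level 1.77-fold lower in DEX leaves (limma, adjusted p = 0.000204). CDC6 (AT2G29680_at), the ATPase that works with CDT1A, fell by 0.69 (adjusted p = 0.00382). AT1G07270 (probe set AT1G07270_at), which is listed with CDC6 and has no symbol in RefSeq, had log2 levels of 6.57, 6.58 and 6.40 in DEX 4 h leaves, against 7.06, 7.35 and 7.12 in mock 4 h leaves. Every DEX array was thus below every mock array, and the fold change was -0.66 (SE 0.11, limma adjusted p = 0.00144). Without mock 4 h replicate 2, its highest mock 4 h array, AT1G07270 was at -0.57 (limma adjusted p = 0.00398). All 3 measured genes that load the helicase were therefore lower.

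Of the 5 measured MCM helicase genes, 4 fell. MCM7 (AT4G02060_at), known in Arabidopsis as PROLIFERA, had log2 levels of 10.40, 10.40 and 10.44 in DEX 4 h leaves, against 11.08, 10.87 and 11.20 in mock 4 h leaves. MCM2 (AT1G44900_at) stood at 9.37, 9.05 and 9.16 in DEX 4 h leaves, against 10.01, 9.66 and 9.89 in mock 4 h leaves. In neither gene did the groups overlap, and the DEX arrays of MCM7 were nearly equal. The log2 fold changes were -0.63 for MCM7 (SE 0.10, limma adjusted p = 0.000818) and -0.66 for MCM2 (SE 0.11, limma adjusted p = 0.00143). MCM4 fell by 0.56 (adjusted p = 0.00542) and MCM3 by 0.49 (adjusted p = 0.0131), and the call on MCM3 was lost without DEX 4 h replicate 1 (adjusted p = 0.0628). MCM5 missed the threshold at -0.44 (limma adjusted p = 0.0671). It had 9.55, 9.54 and 9.55 in DEX 4 h leaves and 10.10, 9.59 and 10.26 in mock 4 h leaves. All the DEX arrays were lower, and it passed without mock 4 h replicate 2 (-0.63, adjusted p = 0.000485).

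Of the 5 measured ORC genes, 2 fell. ORC6 (AT1G26840_at), a small subunit of the complex, had log2 levels of 8.65, 8.63 and 8.62 in DEX 4 h leaves, against 9.45, 9.17 and 9.34 in mock 4 h leaves. ORC2 (AT2G37560_at), a core subunit, stood at 7.57, 7.63 and 7.60 in DEX 4 h leaves and at 8.27, 8.00 and 8.54 in mock 4 h leaves. Both genes separated the groups fully. They fell by 0.69 (ORC6, SE 0.12, limma adjusted p = 0.00132) and 0.67 (ORC2, SE 0.11, limma adjusted p = 0.00158). The remaining subunits did not pass: the log2 fold change was -0.33 for ORC3 (adjusted p = 0.317), -0.19 for ORC5 (adjusted p = 0.35) and 0.25 for ORC4 (adjusted p = 0.267), and their groups overlapped. Without mock 4 h replicate 2 they were -0.51 for ORC3 (adjusted p = 0.074), -0.28 for ORC5 (adjusted p = 0.156) and 0.15 for ORC4 (adjusted p = 0.53).

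**Figure D2:**
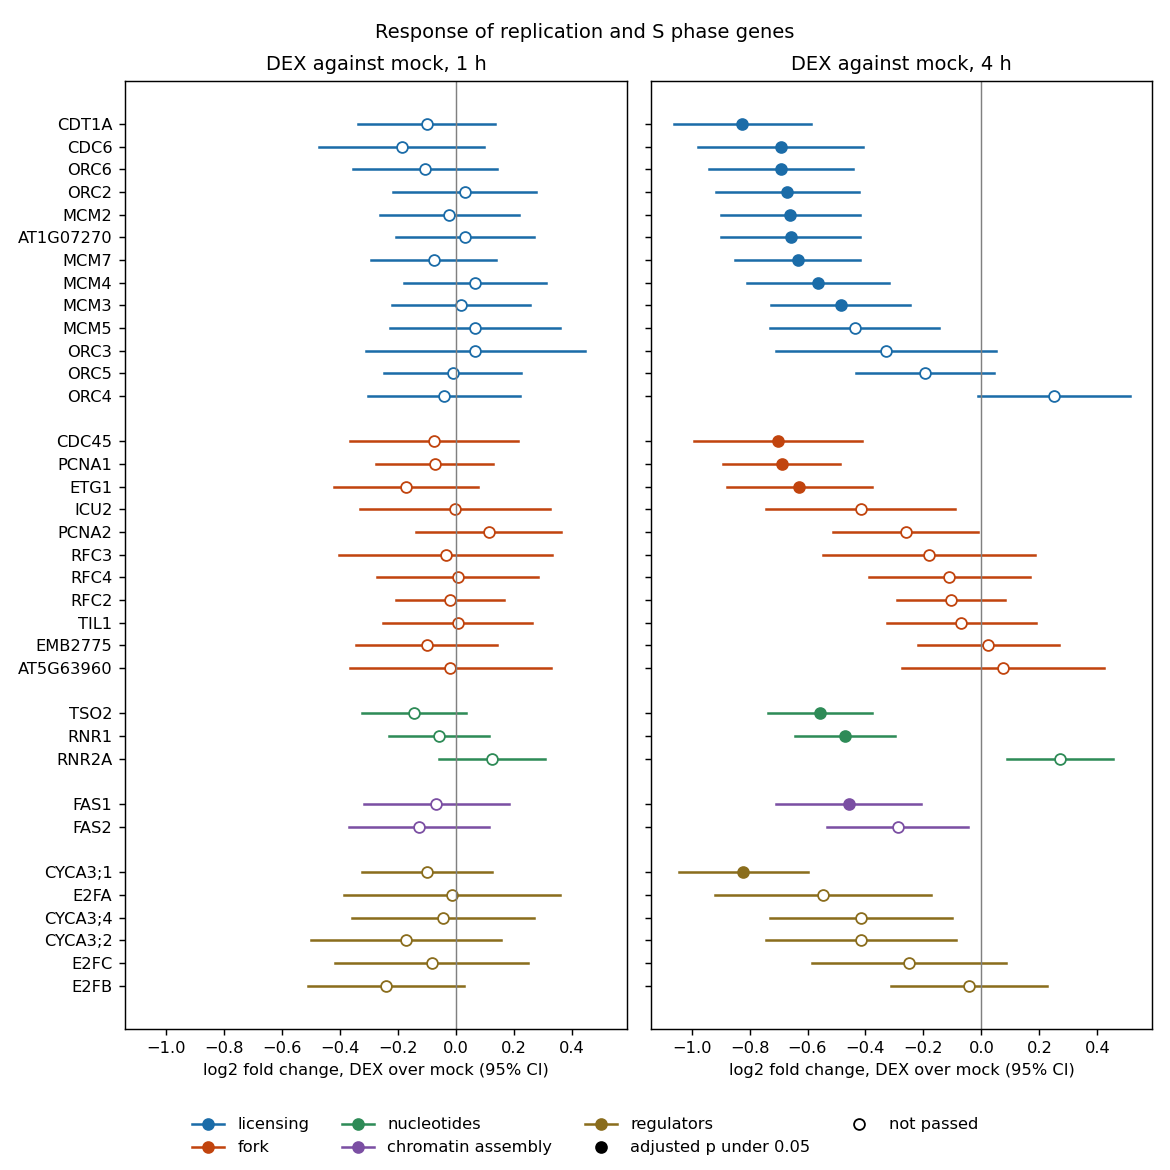
Log2 fold changes of DEX over mock leaves (x axis) with 95% confidence intervals are drawn for the 35 genes at 1 h (left) and 4 h (right), coloured by step, and filled points passed an adjusted p under 0.05. No point is filled at 1 h. At 4 h 16 are filled, all left of 0, from CDT1A at -0.83 to FAS1 at -0.46.

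At the replication fork, the listed genes that fell were a clamp gene and the helicase partners CDC45 and ETG1. PCNA1 (AT1G07370_at), which encodes the sliding clamp, had log2 levels of 11.54, 11.62 and 11.29 in DEX 4 h leaves, against 12.22, 12.11 and 12.19 in mock 4 h leaves. Every DEX array was far below every mock array. PCNA1 fell by 0.69 (SE 0.09, limma adjusted p = 0.000232), to a level 1.61-fold lower in DEX leaves. CDC45 (AT3G25100_at), a subunit of the active helicase, stood at 8.42, 8.27 and 8.53 in DEX 4 h leaves and at 9.19, 8.78 and 9.36 in mock 4 h leaves. ETG1 (AT2G40550_at), an MCM-binding protein first described as an E2F target, had 9.67, 9.87 and 9.58 in DEX 4 h leaves and 10.46, 10.09 and 10.45 in mock 4 h leaves. Both were lower in every DEX array, with mock 4 h replicate 2 nearest to them. CDC45 fell by 0.70 (SE 0.14, limma adjusted p = 0.00384) and ETG1 by 0.63 (SE 0.12, limma adjusted p = 0.00289).

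The listed polymerase and clamp loader genes did not pass the test. A primase subunit outside the list fell and is given below with the other replication genes. ICU2 (AT5G67100_at), the catalytic subunit of the primer-making polymerase alpha, had log2 levels of 7.95, 8.06 and 8.22 in DEX 4 h leaves and of 8.65, 8.10 and 8.74 in mock 4 h leaves. Mock 4 h replicate 2 lay inside the DEX range. Its fold change of -0.42 had an adjusted p of 0.122 in limma, and of 0.00387 without that array, at -0.62. TIL1 (AT1G08260_at), the catalytic subunit of polymerase epsilon, and AT5G63960, listed among the replicative polymerases, had log2 fold changes of -0.07 and 0.07 (adjusted p = 0.811 and 0.858). Without the array both were below 0, at -0.19 for TIL1 and -0.15 for AT5G63960 (adjusted p = 0.379 and 0.554). The 4 measured clamp loader genes, RFC2, RFC3, RFC4 and EMB2775, lay between -0.18 and 0.02, and 0 of 4 had an unadjusted p under 0.05. Without mock 4 h replicate 2, RFC3 passed at -0.45 (adjusted p = 0.00709), and the others were -0.14 for RFC2, -0.26 for RFC4 and -0.07 for EMB2775, whose sign had turned.

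PCNA2 (AT2G29570_at), the second clamp gene, was followed beside PCNA1. Its log2 level was 11.78, 11.66 and 11.47 in DEX 4 h leaves, against 11.77, 11.85 and 12.07 in mock 4 h leaves. The groups overlapped at their edges, and the fold change of -0.26 did not pass (SE 0.12, limma adjusted p = 0.217). Without mock 4 h replicate 2 it was -0.29 (limma adjusted p = 0.208). The difference between the clamp genes within an array, PCNA1 minus PCNA2, was 0.43 lower in DEX 4 h leaves than in mock 4 h leaves, with the arrays fully separated. That is the smallest two-sided p which 3 arrays against 3 allow in an exact permutation test (p = 0.1, and 0.2 adjusted over the 4 gene pairs compared), so this exact test cannot reach 0.05 here. Probe sets of close gene copies can share signal.

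The ribonucleotide reductase genes gave unequal results. TSO2 (AT3G27060_at), a small subunit of the enzyme, had log2 levels of 11.72, 11.69 and 11.77 in DEX 4 h leaves, against 12.34, 12.25 and 12.27 in mock 4 h leaves. RNR1 (AT2G21790_at), the large subunit, stood at 10.82, 10.88 and 10.95 in DEX 4 h leaves and at 11.37, 11.27 and 11.42 in mock 4 h leaves. Both sets of arrays were tight and apart. TSO2 fell by 0.56 (SE 0.08, limma adjusted p = 0.000528) and RNR1 by 0.47 (SE 0.08, limma adjusted p = 0.00161). RNR2A (AT3G23580_at), another small subunit, had 11.51, 11.44 and 11.46 in DEX 4 h leaves, against 11.27, 11.19 and 11.13 in mock 4 h leaves. Here every DEX array was the higher one, yet the fold change of 0.27 missed the threshold (SE 0.08, limma adjusted p = 0.0683). Without mock 4 h replicate 2 it was again 0.27 (limma adjusted p = 0.0873). The difference TSO2 minus RNR2A within an array was 0.83 lower in DEX 4 h leaves, again with full separation and the smallest p allowed (exact permutation test, two-sided, p = 0.1, and 0.2 adjusted over the 4 pairs).

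Of the chromatin assembly genes, FAS1 (AT1G65470_at), the large subunit of chromatin assembly factor 1, had log2 levels of 7.02, 7.11 and 6.91 in DEX 4 h leaves, against 7.60, 7.43 and 7.38 in mock 4 h leaves. It fell by 0.46 (SE 0.12, limma adjusted p = 0.0238) without overlap between the groups, and the call was lost without DEX 4 h replicate 3 (adjusted p = 0.0884), mock 4 h replicate 1 (adjusted p = 0.0858) or DEX 4 h replicate 1 (adjusted p = 0.0662). FAS2 (AT5G64630_at), the middle subunit, had 7.61, 7.88 and 7.92 in DEX 4 h leaves and 8.28, 7.90 and 8.10 in mock 4 h leaves. Its groups overlapped through mock 4 h replicate 2, with a fold change of -0.29 (SE 0.11, limma adjusted p = 0.152). Without that array FAS2 passed at -0.39 (adjusted p = 0.0404).

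Among the regulators, CYCA3;1 (AT5G43080_at), an A3-type cyclin of the start of S phase, had the smallest p of all 35 genes at 4 h. Its log2 level was 8.70, 8.84 and 8.60 in DEX 4 h leaves, against 9.58, 9.34 and 9.68 in mock 4 h leaves. The groups lay well apart. CYCA3;1 fell by 0.82 (SE 0.10, limma adjusted p = 0.000126), to a level 1.77-fold lower in DEX leaves. CYCA3;2 (AT1G47210_at) had 9.55, 9.23 and 9.13 in DEX 4 h leaves and 10.11, 9.41 and 9.63 in mock 4 h leaves, while CYCA3;4 (AT1G47230_at) had 7.95, 7.90 and 8.39 in DEX 4 h leaves and 8.32, 8.74 and 8.43 in mock 4 h leaves. Both overlapped, and both had a fold change of -0.42 that did not pass (limma adjusted p = 0.125 for CYCA3;2 and 0.108 for CYCA3;4). Without mock 4 h replicate 2, its highest mock 4 h array, CYCA3;4 was at -0.29 (limma adjusted p = 0.263). In the pair CYCA3;1 minus CYCA3;2, the within-array difference was 0.41 lower in DEX 4 h leaves (exact permutation test, two-sided, p = 0.2, and 0.267 over the 4 pairs), and in CDC6 minus AT1G07270 it was 0.03 lower (p = 0.8).

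The E2F genes themselves had 0 of 3 calls at 4 h. E2FA (AT2G36010_at), an activating E2F, had log2 levels of 8.09, 7.53 and 7.61 in DEX 4 h leaves and of 8.51, 7.84 and 8.53 in mock 4 h leaves. E2FC (AT1G47870_at), described in Arabidopsis as a repressor of cell division genes, stood at 8.81, 8.60 and 8.73 in DEX 4 h leaves and at 9.12, 8.53 and 9.25 in mock 4 h leaves. Mock 4 h replicate 2 lay inside the DEX range for E2FA and below all DEX arrays for E2FC. The fold changes were -0.55 for E2FA (SE 0.17, limma adjusted p = 0.0724) and -0.25 for E2FC (SE 0.16, limma adjusted p = 0.402). Without that array E2FA passed at -0.77 (adjusted p = 0.00225), E2FC at -0.47 (adjusted p = 0.0157) and CYCA3;2 at -0.57 (adjusted p = 0.0214). E2FB, the other activating E2F, had a fold change of -0.04 (adjusted p = 0.897), and of -0.18 without the array (adjusted p = 0.385).

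**Figure D3:**
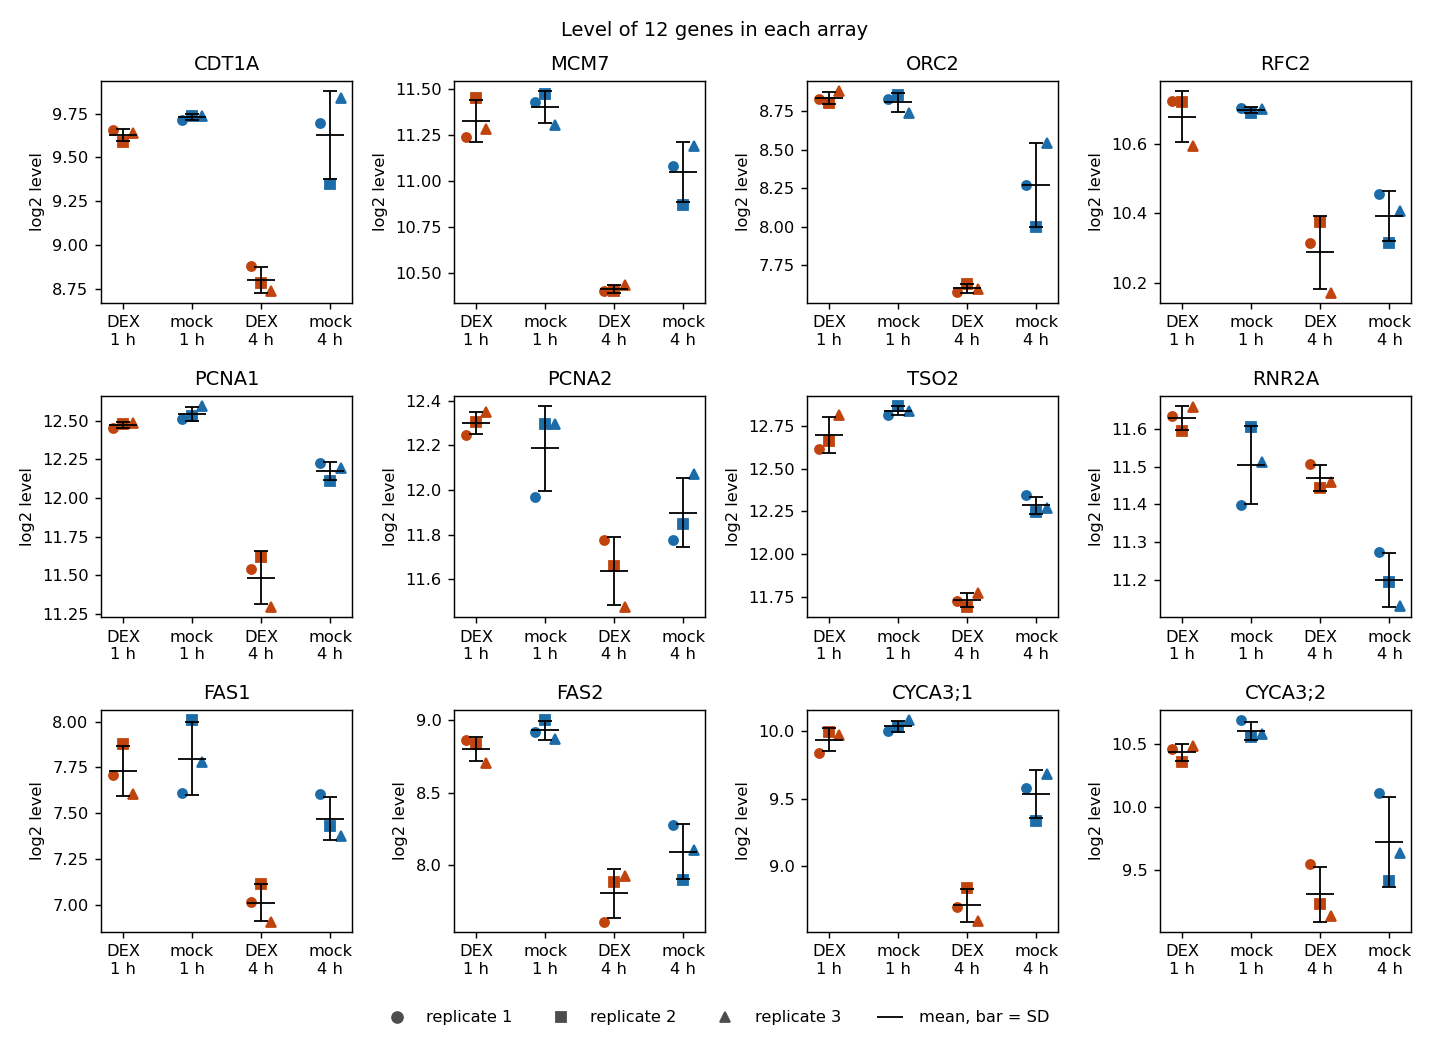
Log2 levels (y axis, own scale per gene) of 12 genes are plotted in every array, by group, with DEX in orange and mock in blue, the mean as a bar and the SD as whiskers. CDT1A lies at 8.74 to 8.88 in the DEX 4 h arrays and at 9.35 or above in all others, while FAS2 and CYCA3;2 are also lower in the mock 4 h arrays than at 1 h. RNR2A lies at 11.44 to 11.51 in the DEX 4 h arrays and at 11.13 to 11.27 in the mock 4 h arrays.

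At 1 h no replication gene passed the test. Of the 35, 0 fell and 0 rose (limma, adjusted p under 0.05), against 0.084% and 0.63% of all loci, and 0 had an unadjusted p under 0.05. The median log2 fold change was -0.04, with a range of -0.24 (E2FB) to 0.12 (RNR2A). In 8 genes every DEX array lay below every mock array (22.9% of the 35), against 6.71% of all loci, and at 4 h that held for 17 genes, against 7.34%. CDT1A had log2 levels of 9.66, 9.59 and 9.64 in DEX 1 h leaves, against 9.71, 9.74 and 9.74 in mock 1 h leaves. CYCA3;1 had 9.84, 10.00 and 9.98 in DEX 1 h leaves, against 10.00, 10.03 and 10.08 in mock 1 h leaves, and PCNA1 had 12.45, 12.48 and 12.48 in DEX 1 h leaves, against 12.51, 12.53 and 12.60 in mock 1 h leaves. These DEX arrays were slightly lower, with fold changes of -0.10 for CDT1A, -0.10 for CYCA3;1 and -0.07 for PCNA1, and the 95% intervals of all 35 fold changes included 0.

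Whether the response to DEX differed between the times was tested with the interaction term of the same model. It passed for CDT1A (-0.72, SE 0.16, limma adjusted p = 0.035), CYCA3;1 (-0.72, SE 0.15, limma adjusted p = 0.0261) and PCNA1 (-0.62, SE 0.13, limma adjusted p = 0.0347), each more negative at 4 h, where 0.313% of all loci fell and 0.966% rose. The median over the 35 genes was -0.41, against 0.03 over all loci. Most arrays bore on these calls: CDT1A lost its call without 11 of the 12 arrays taken singly, PCNA1 without 10 and CYCA3;1 without 8, with adjusted p of up to 0.111. With the replicate number as a block, PCNA1 no longer passed (adjusted p = 0.062), while AT1G07270 did (adjusted p = 0.0471). Without mock 4 h replicate 2, 11 genes passed, where 0.798% of all loci fell.

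Between 1 h and 4 h the genes also moved in leaves that received no DEX. In mock leaves 12 of 35 were lower at 4 h than at 1 h and 0 were higher, where 5.64% of all loci fell and 3.64% rose (limma, adjusted p under 0.05). The median log2 fold change was -0.26, against -0.04 over all loci. It was -0.15 without mock 4 h replicate 2. When only the mock arrays were fitted 4 genes fell, and calls over all loci, in both directions, went from 1990 to 1086. In DEX leaves 23 of 35 were lower at 4 h, and 0 were higher, where 8.98% of all loci fell and 10.4% rose, with a median of -0.72 against -0.02 over all loci. Every 4 h array lay below every 1 h array in 15 genes in mock leaves, against 19.1% of all loci, and in 28 genes in DEX leaves, against 20.5%. The 3′ to 5′ signal difference of the actin control probe sets, a measure of RNA integrity, moved with time as well: it was 3.88 to 4.17 log2 units in the 4 h arrays, against 3.03 to 3.23 in the 1 h arrays. Its part in the time comparisons was not tested. Within 4 h it was 3.94 to 4.06 in DEX arrays and 3.88 to 4.17 in mock arrays. The same difference for GAPDH was 0.86 to 1.19 in DEX 4 h arrays and 0.60 to 1.02 in mock 4 h arrays, which overlapped, with the DEX arrays tending higher, against 0.42 to 0.67 at 1 h.

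FAS2 had the smallest p of the mock time comparison. Its log2 level was 8.28, 7.90 and 8.10 in mock 4 h leaves, against 8.92, 9.00 and 8.87 in mock 1 h leaves. CYCA3;2 had 10.11, 9.41 and 9.63 in mock 4 h leaves, against 10.69, 10.56 and 10.58 in mock 1 h leaves. TSO2 had 12.34, 12.25 and 12.27 in mock 4 h leaves, against 12.81, 12.87 and 12.84 in mock 1 h leaves. In all 3 genes every 4 h array was below every 1 h array. FAS2 fell by 0.84 (SE 0.11, limma adjusted p = 0.000457), CYCA3;2 by 0.89 (SE 0.15, limma adjusted p = 0.00264) and TSO2 by 0.55 (SE 0.08, limma adjusted p = 0.00103). The other genes that fell in mock leaves were CYCA3;1, MCM3, ORC2, ETG1, PCNA1, RNR2A, ORC6, MCM7 and RFC2. Calls on 6 of the 12, ORC6, MCM7, ETG1, PCNA1, RFC2 and RNR2A, were each lost without at least 1 single array, and without mock 4 h replicate 2 the calls were 8, all among the 12, against 4.55% of all loci. The count fell to 6 without mock 1 h replicate 2 and, likewise, to 6 without mock 1 h replicate 3. Calls over all loci, in both directions, went from 1990 to 968 and 945 in these settings.

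In DEX leaves the decline over time was steepest for ORC2 and CYCA3;1. ORC2 had log2 levels of 7.57, 7.63 and 7.60 in DEX 4 h leaves, against 8.83, 8.80 and 8.88 in DEX 1 h leaves, and CYCA3;1 had 8.70, 8.84 and 8.60 in DEX 4 h leaves, against 9.84, 10.00 and 9.98 in DEX 1 h leaves. TSO2 had 11.72, 11.69 and 11.77 in DEX 4 h leaves, against 12.62, 12.66 and 12.82 in DEX 1 h leaves. Each gap was several times the spread within a group. ORC2 fell by 1.24 (limma adjusted p = 7.5e-06), CYCA3;1 by 1.23 (limma adjusted p = 3.4e-06) and TSO2 by 0.97 (limma adjusted p = 3.9e-06), which are levels 2.36-fold, 2.34-fold and 1.96-fold lower at 4 h.

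**Figure D4:**
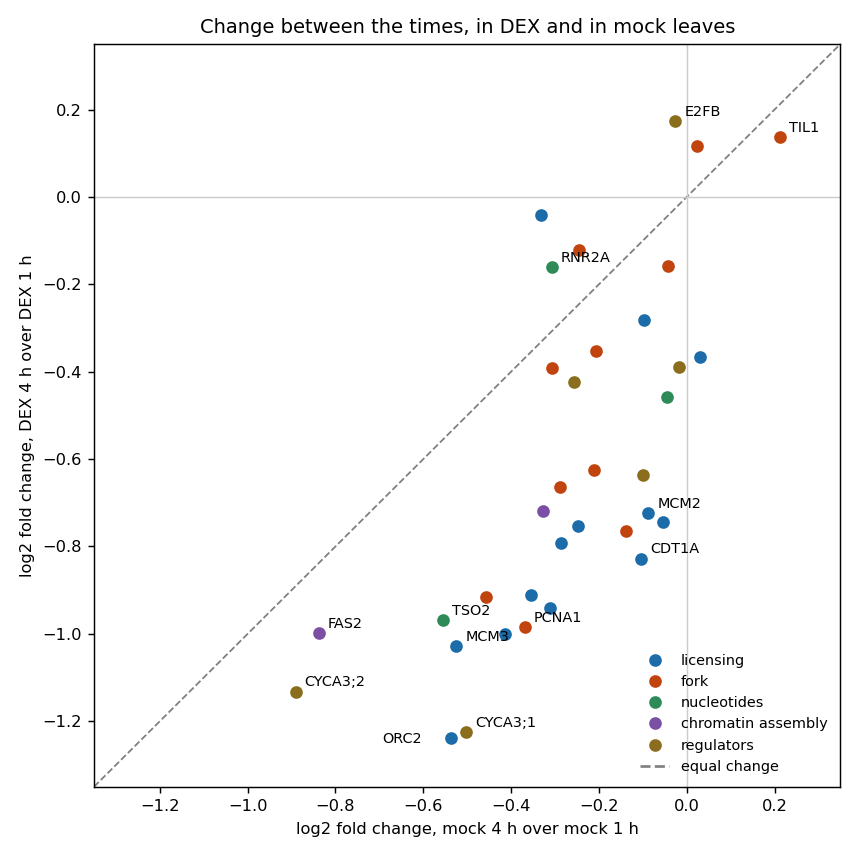
For each of the 35 genes the log2 fold change between 4 h and 1 h is plotted in mock leaves (x axis) and in DEX leaves (y axis), coloured by step, with the line of equal change dashed. Below the line lie 30 of 35 genes. FAS2 and CYCA3;2 lie near it at the left, and CDT1A and MCM2 lie far below it with mock values near 0.

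Set side by side, the genes were grouped by their calls, which do not test a difference between comparisons. In mock leaves over time FAS1 (-0.33) and MCM4 (-0.31) were not called, while RFC2 (-0.31) and RNR2A (-0.31) were. Lower with DEX at 4 h and also lower over time in mock leaves were 8 genes: CYCA3;1, ETG1, MCM3, MCM7, ORC2, ORC6, PCNA1 and TSO2. The mock calls of ETG1, MCM7, ORC6 and PCNA1 were each lost without at least 1 single array. Another 8 were called with DEX at 4 h only: CDT1A, CDC6, AT1G07270, CDC45, FAS1, MCM2, MCM4 and RNR1. Their mock time changes lay between -0.33 (FAS1) and -0.045 (RNR1). CYCA3;2, FAS2, RFC2 and RNR2A were called over time in mock leaves and not with DEX at 4 h. These comparisons share the mock 4 h arrays, so that a low mock 4 h array acts on both, and the counts are a description. The mock and DEX time changes share no array, and over the 35 genes they correlated at r = 0.70 (Spearman's rho = 0.75), as a description across genes.

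Of 48 other replication genes listed by function, 42 were measured. With DEX at 4 h 10 fell and 0 rose, where 2.55% of all loci fell and 5.35% rose. The median log2 fold change was -0.20. RPA2 (-0.85), RPA70D (-0.83) and RPA70B (-0.83) encode subunits of replication protein A, which covers single-stranded DNA. WEE1 (-0.85) encodes a kinase that in Arabidopsis acts when replication is disturbed, and DUT1 (-0.65) an enzyme that keeps uracil out of DNA. AT5G41880 (-0.69) encodes a primase subunit by its RefSeq name. These 6 had limma adjusted p of 0.000109 to 0.000557. Without mock 4 h replicate 2 the 10 became 17, where 4.73% of all loci fell. In mock leaves 14 of the 42 fell over time, where 5.64% of all loci fell. TOPII (0.75) and RPA1E (0.57) were the 2 that rose, where 3.64% of all loci rose.

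Mitotic genes were set beside them. Of 17 listed, 12 were measured. With DEX at 4 h 0 fell or rose (limma, adjusted p under 0.05), where 2.55% of all loci fell and 5.35% rose. At an unadjusted p under 0.05 there were 0 as well. These results include mock 4 h replicate 2. The summed linear signal of the mitotic genes was 18962 in that array and 19373 to 21448 in the DEX 4 h arrays. In the other mock 4 h arrays it was 21657 and 21014. The smallest p values belonged to the Aurora kinases AUR2 (log2 fold change -0.22) and AUR1 (0.17), the B-type cyclins CYCB2;1 (0.19), CYCB2;2 (-0.12) and CYCB1;4 (-0.09), and the kinase CDKB2;2 (0.13). All 6 had adjusted p between 0.239 and 0.762. Over time in mock leaves 3 of the 12 rose, where 3.64% of all loci rose, and 0 fell. The 3 were NACK1 (0.51), AUR2 (0.39) and MAP65-3 (0.38), which act in spindle or cell plate formation. Whether replication and mitotic genes differ as groups was not tested.

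Markers of proliferating leaf tissue moved with the replication genes at 4 h. With DEX, where 2.55% of all loci fell, all 5 fell: KLU (-2.08), GRF5 (-0.96), GIF1 (-0.80), ANT (-0.63) and GRF3 (-0.53). Their summed linear signal was 3738 to 5048 in DEX 4 h arrays, against 7880 to 8625 in mock 4 h arrays, and 0 of 5 were called over time in mock leaves. Of 7 shoot meristem genes, 2 fell with DEX at 4 h, KNAT1 (-1.33) and CUC3 (-0.47), their summed signal was 431 to 474 in DEX 4 h arrays and 565 to 631 in mock 4 h arrays, and the genes lay below the lower quartile in 12 arrays (WUS), 8 (KNAT2, CUC3), 3 (CLV3), 1 (KNAT1) and 0 (STM, CUC2). Of the leaf markers, 0 of 4 were called at 4 h, and of 6 measured root genes 0. The part of these markers in the result on replication genes was not tested. The lists were chosen with earlier results of these data known, so these counts are a description.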

How the data were processed

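The deposited values are log2 expression levels per probe set, made by the authors with RMA (background correction, normalization between arrays and probe summary), per the submitters' processing notes; the version and the probe set definition are not given in the sources used here. Levels ran from 4.43 to 14.1. The 64 AFFX control sets were left out of the tests, and 21428 loci were tested with no filter on level. The 35 replication genes were named through RefSeq TAIR10.1. Arrays hold no molecule counts, so precision rests on 3 arrays per group. Leaf 3 was dissected from 128 plants, without a statement whether per sample, and the samples came from independent experiments.

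A linear model with 1 mean per group was fitted to all 12 arrays with limma 3.58.1 in R 4.3.3 (lmFit, contrasts, eBayes, 8 residual and 5.85 prior degrees of freedom), and p-values were Benjamini-Hochberg adjusted over all loci, with calls under 0.05. The code recovered most of the halvings and doublings set in simulated data with independent noise and no array set apart. Both are larger than any change with DEX at 4 h among the replication genes. Recovery of smaller set changes was not required. Gene pairs were compared by exact permutation tests. Alternatives were a replicate block, a fit to the arrays compared, a mean log2 level of at least 6, renewed quantile normalization, centring on array medians, limma's trend and robust options, array weights, no moderation, and leaving out each array. Centring with mock 4 h replicate 2 left out was chosen after seeing the data. Same-numbered arrays of different groups correlated at -0.10 to 0.19 in their deviations, with 3 of 18 pairs over 0.1, so they were not treated as paired.

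The genes and lists were chosen with earlier results of these data known. Every array's value is printed for as many as 5 genes in a step, ranked by p at 4 h, and 3 in a comparison of times. MCM5 was added after its values were seen. Promoter and protein sequences were not used here.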

Additional observations from a re-analysis of the deposited data

Results flagged for a closer look

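For 3 genes the response to DEX differed between 1 h and 4 h by a test of the difference itself, the interaction term of limma. The change of the log2 fold change, 4 h minus 1 h, was -0.72 for CDT1A (adjusted p = 0.035), -0.62 for PCNA1 (adjusted p = 0.0347) and -0.72 for CYCA3;1 (adjusted p = 0.0261). CDT1A had a DEX response of -0.83 at 4 h and of -0.10 at 1 h, PCNA1 of -0.69 at 4 h and -0.07 at 1 h, and CYCA3;1 of -0.82 at 4 h and -0.10 at 1 h. With single arrays left out the adjusted p ranged from 0.0014 to 0.103 for CDT1A, from 0.0231 to 0.111 for PCNA1 and from 0.00453 to 0.0838 for CYCA3;1. With the replicate number as a block it was 0.0456 for CDT1A, 0.062 for PCNA1 and 0.0492 for CYCA3;1.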

How the results depend on the processing

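No called gene changed direction in the settings run. Among genes not called, EMB2775 and AT5G63960 turned negative for DEX at 4 h without mock 4 h replicate 2 or with centred arrays, and in mock leaves over time CDT1A, MCM2, CDC45, RFC3, RFC4, E2FA and E2FB turned positive without mock 4 h replicate 2. At 4 h the 16 genes lower with DEX numbered 15 to 23 with single arrays left out and 21 with centred arrays. The median log2 fold change over all 35 genes was -0.44. It became -0.55 with centred arrays, -0.54 with array weights and -0.57 without mock 4 h replicate 2 (single arrays left out: -0.57 to -0.39). With centred arrays and mock 4 h replicate 2 left out it was -0.58. Centring moved the median of all loci at 4 h to -0.09 (0.02 uncentred). The genes higher with DEX at 4 h numbered 0, and 1 (RNR2A) with trend and robust options or with no moderation. The change of the response between the times passed for 3 genes, and for 5 with a mean log2 level of at least 6, 11 with renewed quantile normalization, 10 with centred arrays, 7 with trend and robust options, 12 with array weights, 1 with no moderation, 11 with centred arrays and mock 4 h replicate 2 left out, and 0 to 11 with single arrays left out. In mock leaves the 12 genes lower at 4 h than at 1 h became 4 when only those 6 arrays were fitted and 6 to 11 with single arrays left out. The median of this change over all 35 genes was -0.26, and -0.33 to -0.15 with single arrays left out. In DEX leaves the 23 genes lower at 4 h numbered 21 to 23 with single arrays left out and 22 to 29 in the other settings. Replicate block: with the replicate number as a block, 16 genes fell with DEX at 4 h, 3 changed their response (PCNA1 was lost and AT1G07270 gained), 9 fell over time in mock leaves and 23 in DEX leaves. Over all loci, calls moved by over 1.5 times in some settings: 153 at 1 h became 63 with no moderation and 378 with array weights, 1693 at 4 h became 994 with only those arrays, 274 for the change of the response became 102 with no moderation and 465 with array weights, 1990 in mock leaves over time became 945 without mock 1 h replicate 3 and 3219 with centred arrays and mock 4 h replicate 2 left out, and 4160 in DEX leaves became 2647 without DEX 1 h replicate 1 and 7092 under that same centring. The causes were not tested. With 3 arrays per group, log2 differences below the intervals drawn could not be resolved.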
